A study of Mus musculus with 16 samples.

Results

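The genes described here are 45 genes of the synaptic vesicle release machinery, taken by name from the 19999 genes of the raw count table, a list drawn up with earlier results of these data known; the rule itself uses no measured value. They were grouped by role into 13 vesicle proteins (Syn1, Syn2, Syn3, Sv2a, Sv2b, Sv2c, Syp, Synpr, Syngr1, Syngr3, Rab3a, Rab3c and Rph3a), 7 calcium sensors (Syt1, Syt2, Syt4, Syt5, Syt7, Syt11 and Doc2b), 6 SNAREs with the proteins that recycle them (Snap25, Stx1a, Vamp1, Vamp2, Napb and Nsf), 3 complexins (Cplx1, Cplx2 and Cplx3), 12 priming and active zone proteins (Unc13a, Unc13b, Unc13c, Rims1, Rims2, Rims3, Bsn, Pclo, Erc2, Ppfia2, Cadps and Cadps2) and 4 endocytosis proteins (Snap91, Dnm1, Amph and Synj1). The list name calcium sensors covers the synaptotagmins and Doc2b, and does not state that each of them senses calcium. All 45 were in the table. Together they held 2373238 of the 216742276 unique molecular identifiers (UMIs, each standing for 1 captured RNA molecule), or 0.956 to 1.23% of the UMIs of a mouse.

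Single-nucleus RNA-Seq was performed on the medial prefrontal cortex of 16 male mice labelled as 22 weeks old, with 4 mice in each of 4 groups. The WT mice were of the strain labelled B6;129. The alleles of the 3xTg-AD mice include human APP with the Swedish change and human tau with the P301L change, both driven by the Thy1 promoter, which is active mainly in neurons. The human transgenes were not analysed here. Alcohol-exposed mice of both genotypes went through repeated cycles of ethanol vapor with injections of ethanol and pyrazole, a drug that slows ethanol breakdown. Their controls got pyrazole in saline and breathed air, so pyrazole was common to all 4 groups. Every mouse had also been through the Morris water maze before tissue was taken. Vapor exposure had ended before the maze, so alcohol-exposed refers to a past exposure followed by withdrawal.

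At a synapse, vesicles filled with transmitter are held near the membrane by synapsins and Rab3 proteins, and are docked and primed at the active zone by RIM, Munc13 (Unc13) and CAPS (Cadps) proteins on the scaffolds Bassoon, Piccolo and ELKS (Bsn, Pclo and Erc2). Calcium entering the terminal binds synaptotagmins, the SNARE proteins on vesicle and membrane then zip together under the control of complexins, and NSF takes the spent SNARE complexes apart while dynamin and its partners retrieve the vesicle. Inhibitory and excitatory cortical neurons share this scheme but are known to use different paralogs within several of the families.

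The table held 114512 nuclei with a median of 1543 UMIs, and 9622031 to 17544364 UMIs a mouse. Nuclei were put into classes by their UMIs for marker genes, none of which is among the 45, giving 51257 glutamatergic nuclei and 8159 GABAergic nuclei. Within these, 5 glutamatergic classes (4834 L2/3 IT-like, 2222 L5 IT-like, 1676 L5 ET-like, 1063 L5/6 NP-like and 3581 L6 CT-like nuclei) and 5 classes of GABAergic nuclei (534 Pvalb-like, 1022 Sst-like, 459 Vip-like, 727 Lamp5-like and 653 Sncg-list nuclei) were kept, beside 7293 astrocyte-like, 3317 oligodendrocyte-like, 1450 OPC-like, 2215 microglia-like and 917 vascular-like nuclei. The 10 leading genes of the class gathered by the Sncg marker list held 1 marker of its own, Cnr1. They also held 2 genes from the marker lists used here for glutamatergic classes, Slc17a8 and Syt6. The class is therefore given no cell type name and is called Sncg-list nuclei after the list. All 6 markers of the list were raised in it. The 10 leading genes of L5 ET-like nuclei also held only 1 marker of their own, Pou3f1, with 0 from other lists. A further 31804 nuclei matched no class, of which 19340 had under 5% of their UMIs from Malat1, an RNA that stays in the nucleus. Mice 26 and 27 (WT control) and 12 (3xTg-AD control) stood apart in Gm42418, a transcript overlapping ribosomal RNA sequence, at 17914 to 29047 UMIs per 1000000 against 2059 to 4249 in the other 13 mice. Nuclei whose cell barcode was found in more than 1 library numbered 3400, and each of the 120 pairs of libraries shared 3 to 27 barcodes.

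The first comparison asked how far the 45 genes marked neurons in these libraries. Microglia, which form no synapses, served as the class that neurons were set against. Members that also act outside synapses, as Syt11 is known to do, need not be absent there. Levels are given as UMIs per 1000000 UMIs of the genes kept in a comparison after trimmed-mean (TMM) scaling, written CPM, as mean ± SD over 16 mice, and because the kept genes differ they do not carry over from one comparison to another. Of 44 members with enough counts (Doc2b had too few), 17 were higher and 10 lower in glutamatergic than in microglia-like nuclei, where 36.1% of all 11936 genes tested were higher and 30.3% lower (edgeR quasi-likelihood test with mouse as a block, Benjamini-Hochberg adjusted p of at most 0.05). In GABAergic nuclei 23 were higher and 12 lower, against 32.7% and 28% of all genes. The median log2 difference of the members was 0.11 and 0.31 in these comparisons, and that of all genes 0.07 and 0.04. Microglia-like nuclei were shallower, with a median of 833 UMIs against 2412 in glutamatergic and 1630 in GABAergic nuclei, and held less Malat1, at a median of 7.64% of UMIs against 20.1 and 12.9%. With only nuclei of at least 5% Malat1, 42 members were tested, 21 were higher and 9 lower in glutamatergic (33.6% and 30.3% of all genes) and 22 higher and 11 lower in GABAergic nuclei (30.4% and 28.3%). These comparisons were chosen after seeing the data.

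The counts differed by role. Of the 12 priming and active zone members, 9 were higher in glutamatergic and 11 in GABAergic nuclei, whereas of the 6 SNAREs and recycling proteins 2 and 1 were higher and 3 and 5 lower. Rims2, an active zone organizer, stood at 818 ± 137 CPM in glutamatergic, 624 ± 85.3 in GABAergic and 159 ± 40.6 in microglia-like nuclei. Snap25, the membrane SNARE often used as a neuronal gene, stood at 1267 ± 88.5 CPM in glutamatergic nuclei, 1032 ± 85.3 in GABAergic nuclei and 1134 ± 205 in microglia-like nuclei. Its log2 difference from microglia-like nuclei was 0.17 ± 0.04 (SE, adjusted p = 0.000318) in glutamatergic nuclei and -0.13 ± 0.05 (adjusted p = 0.00844) in GABAergic nuclei. Vamp2, its vesicle partner, was lower in both kinds of neuron than in microglia-like nuclei, at 268 ± 28.8 and 296 ± 33.98 against 433 ± 69.6 CPM. Cplx1 was at 76.7 ± 19.7 CPM in glutamatergic and 134 ± 48.6 CPM in microglia-like nuclei, a log2 difference of -0.84 ± 0.09 (adjusted p = 2.92e-17).

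In all, 11 members were higher in both kinds of neuron (Syn3, Syt1, Unc13a, Unc13b, Rims1, Rims2, Pclo, Erc2, Ppfia2, Cadps and Cadps2) and 8 were lower in both (Syn1, Syngr1, Rab3a, Vamp2, Napb, Nsf, Cplx2 and Dnm1). The sets differed in the length of the annotated gene. The genes higher in both spanned 47.3 to 856 kb with a median of 466 kb, and 10 of the 11 were over 200 kb. The genes lower in both spanned 3.9 to 132 kb with a median of 33.4 kb, and 0 of the 8 were over 200 kb. Across the 44 members the rank correlation of gene length with the log2 difference was 0.51 in glutamatergic and 0.52 in GABAergic nuclei, beside 0.21 and 0.17 across the 11838 genes with a length; these are correlations across genes within the same libraries, which are not independent, and are given as a description. In nuclei with at least 5% Malat1 they were 0.54 and 0.60 across members and 0.25 and 0.22 across all genes, all 11 members higher in both kinds of neuron were called higher again, and of the 8 lower in both 7 were called lower again in glutamatergic and 8 in GABAergic nuclei. Whether reads over introns were counted is not given in the sources used here, and its part in this relation was not tested.

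**Figure D1:**
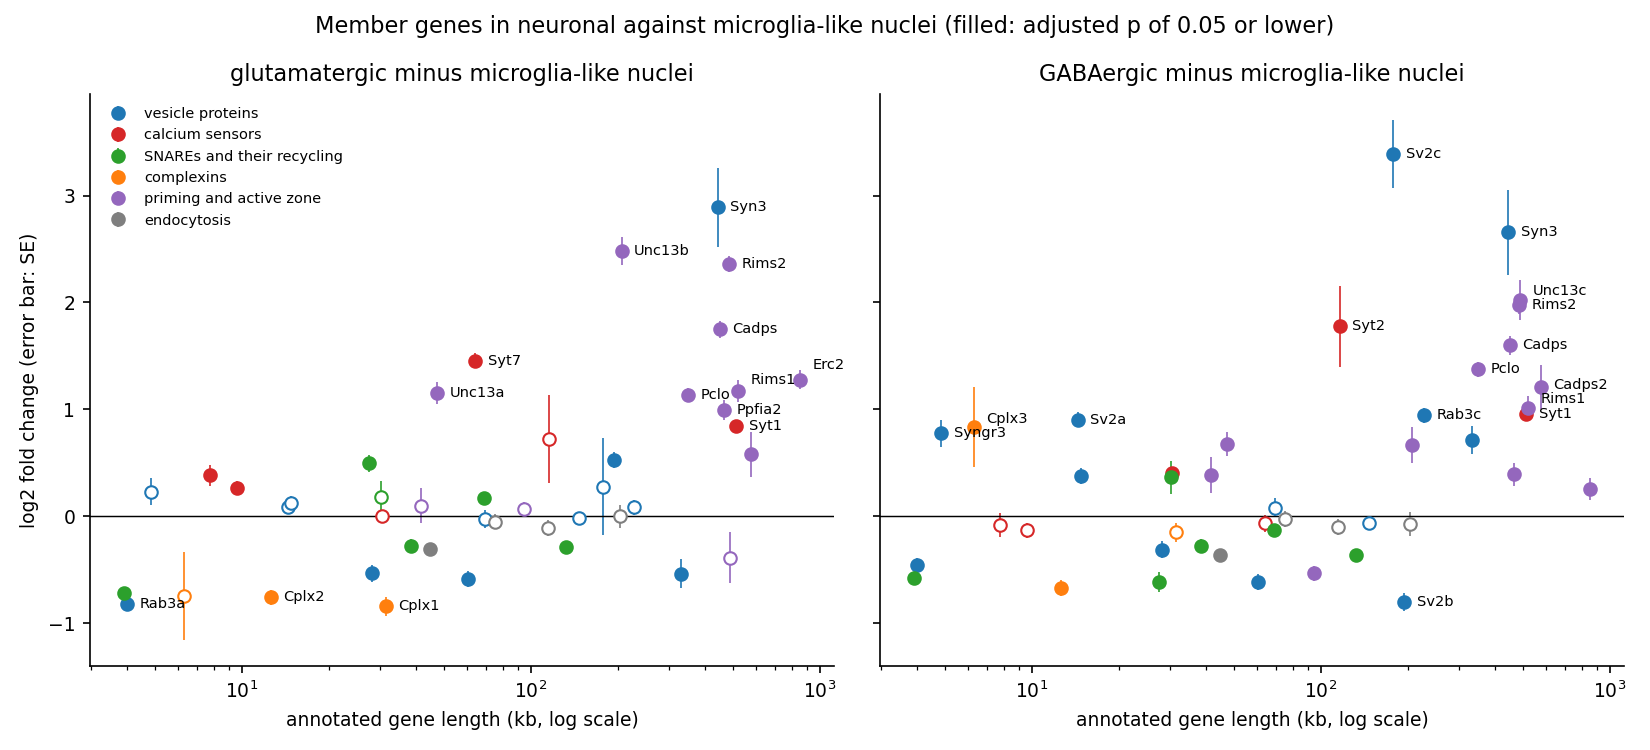
Log2 difference in level (vertical axis) of the 44 tested members between neuronal and microglia-like nuclei against annotated gene length in kb (horizontal log axis), glutamatergic nuclei on the left and GABAergic on the right; bars are SE, colors are roles, filled points passed an adjusted p of 0.05. The points far above 0 lie mostly at the right, among genes over 200 kb, and the shortest genes, Vamp2 and Rab3a at the left edge, lie below 0 in both panels.

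The 19340 nuclei with little Malat1 and no class were compared next. Against glutamatergic nuclei, 31 of the 44 members were higher and 12 lower in them, where 44.5% of all genes were higher and 43.1% lower. With DESeq2 size factors, which shifted the median of all genes by -0.31 on the log2 scale, 27 members were higher and 14 lower, against 35.1% and 53% of all genes, and Stx1a and Sv2b changed sign. Rims2 was at 153 ± 25.6 CPM there, close to the microglia-like level, and Unc13b, a priming factor, at 32.4 ± 7.08 CPM against 187 ± 32.0 in glutamatergic and 30.5 ± 11.7 in microglia-like nuclei. Snap25 was at 1950 ± 228 CPM, Vamp2 at 705 ± 63.0 and Cplx2 at 564 ± 147, each above its level in the 6 named classes of this comparison. The rank correlation with gene length across the 44 members was -0.49, beside -0.18 across all genes with a length. The glutamatergic sums enter this comparison and the one with microglia-like nuclei with opposite signs, so correlations of opposite sign are partly built in. The nuclei with little Malat1 were not tested against microglia-like nuclei. Of the other presynaptic genes on a wider list of 77, 70 were tested, with 25 higher and 26 lower in glutamatergic and 19 higher and 22 lower in GABAergic than in microglia-like nuclei.

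Of the 44 members, 15 were not called higher in either kind of neuron than in microglia-like nuclei, and the 8 lower in both are among them. Over all nuclei of these classes their levels did not stand above those in microglia-like nuclei. In nuclei with at least 5% Malat1, Bsn was called higher in glutamatergic nuclei (log2 0.61). Rph3a and Syn2 were called higher there in both glutamatergic (0.42 and 0.28) and GABAergic nuclei (0.54 and 0.24). For Unc13c, astrocyte-like and OPC-like nuclei held 207 ± 51.3 and 225 ± 66.4 CPM, above GABAergic nuclei at 80.8 ± 18.9, while microglia-like and glutamatergic nuclei held 20.3 ± 9.42 and 15.5 ± 4.87. Sv2c, a vesicle glycoprotein, was at 47.9 ± 18.2 CPM in GABAergic nuclei and between 4.11 and 5.95 CPM in the glutamatergic, microglia-like, astrocyte-like, oligodendrocyte-like and OPC-like nuclei. Syt2, a fast calcium sensor, was at 18.5 ± 8.43 CPM in GABAergic, 9.31 ± 4.38 in glutamatergic and 5.32 ± 6.23 in microglia-like nuclei; its difference from microglia-like nuclei passed in GABAergic nuclei (log2 1.78 ± 0.38, adjusted p = 1.62e-05) and not in glutamatergic nuclei (0.73 ± 0.41, adjusted p = 0.112).

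GABAergic and glutamatergic nuclei of the same mice were then compared. All 45 members were tested among 15328 genes, and 20 were higher and 18 lower in GABAergic nuclei, where 27.7% of all genes were higher and 30.4% lower; 7 members were not called. The median log2 difference was 0.01 for the members and -0.01 for all genes. Members of a role differed in both directions. Of 13 vesicle proteins 9 were higher in GABAergic nuclei and 3 lower, of 7 calcium sensors 3 were higher and 3 lower, of 6 SNAREs and recycling proteins 2 were higher and 3 lower, of 3 complexins 2 were higher and 0 lower, of 12 priming and active zone proteins 4 were higher and 8 lower, and of 4 endocytosis proteins 0 were higher and 1 lower.

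Paralogs of the same family often differed in opposite directions. Among the SV2 glycoproteins, Sv2c stood at 19.5 to 76.9 CPM (median 44.8) in GABAergic nuclei of the 16 mice and at 2.82 to 12.6 (median 4.70) in glutamatergic nuclei. The ranges did not overlap, and the level was 8.61-fold higher in GABAergic nuclei (log2 3.11 ± 0.19 SE, adjusted p = 2.14e-10). Sv2b went the other way, at 86.8 to 150 CPM (median 113) in GABAergic and 214 to 348 (median 293) in glutamatergic nuclei, a log2 difference of -1.35 ± 0.05 (adjusted p = 1.16e-25), again with no mouse of one kind inside the range of the other. Synpr, or synaptoporin, was 2.33-fold higher in GABAergic nuclei at 99.5 ± 26.9 against 43.9 ± 10.5 CPM, with overlapping ranges.

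Among the Munc13 priming factors, Unc13b ran at 36.2 to 58.5 CPM (median 47.3) in GABAergic and 134 to 237 CPM (median 174) in glutamatergic nuclei. It was 3.56-fold higher in glutamatergic nuclei (log2 -1.83 ± 0.05 for GABAergic minus glutamatergic, adjusted p = 3.55e-65). Unc13c showed the opposite, at 52.4 to 116 CPM (median 74.4) against 8.54 to 27.3 (median 13.2), and was 5.3-fold higher in GABAergic nuclei (log2 2.41 ± 0.08, adjusted p = 2.74e-35). Neither pair of ranges overlapped. The active zone scaffold Erc2 was 2.05-fold higher in glutamatergic nuclei, at 256 ± 41.9 against 124 ± 17.4 CPM.

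Among the calcium sensors, Syt7, the slow sensor linked to asynchronous release and facilitation, held 146 to 209 CPM (median 175) in GABAergic and 413 to 642 (median 524) in glutamatergic nuclei, so the lowest glutamatergic value was well above the highest GABAergic one. The log2 difference was -1.54 ± 0.03 (adjusted p = 1.07e-77). Syt2 was 2.1-fold higher in GABAergic nuclei, at 17.1 ± 7.75 against 8.70 ± 4.04 CPM, and Syt5 was lower in GABAergic nuclei at 79.6 ± 15.1 against 110 ± 10.4 CPM. Stx1a, the membrane syntaxin, was 2.17-fold higher in glutamatergic nuclei (193 ± 20.9 against 88.5 ± 17.1 CPM, no overlap). Snap25 differed by -0.32 ± 0.03 on the log2 scale and Vamp1 by 0.16 ± 0.06. Cplx1 and Cplx3, clamps of the SNARE complex, were 1.59-fold and 2.97-fold higher in GABAergic nuclei, and Dnm1, the dynamin of vesicle retrieval, differed by -0.08 ± 0.03 (adjusted p = 0.0315). The Vamp1 call was lost without mouse 4, 18 or 27 (adjusted p of 0.0599 to 0.0997) and the Dnm1 call without mouse 4, 14, 21, 28, 31, 33, 34 or 36 (0.0517 to 0.129). The wider presynaptic list had 25 of 76 tested genes higher and 31 lower.

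**Figure D2:**
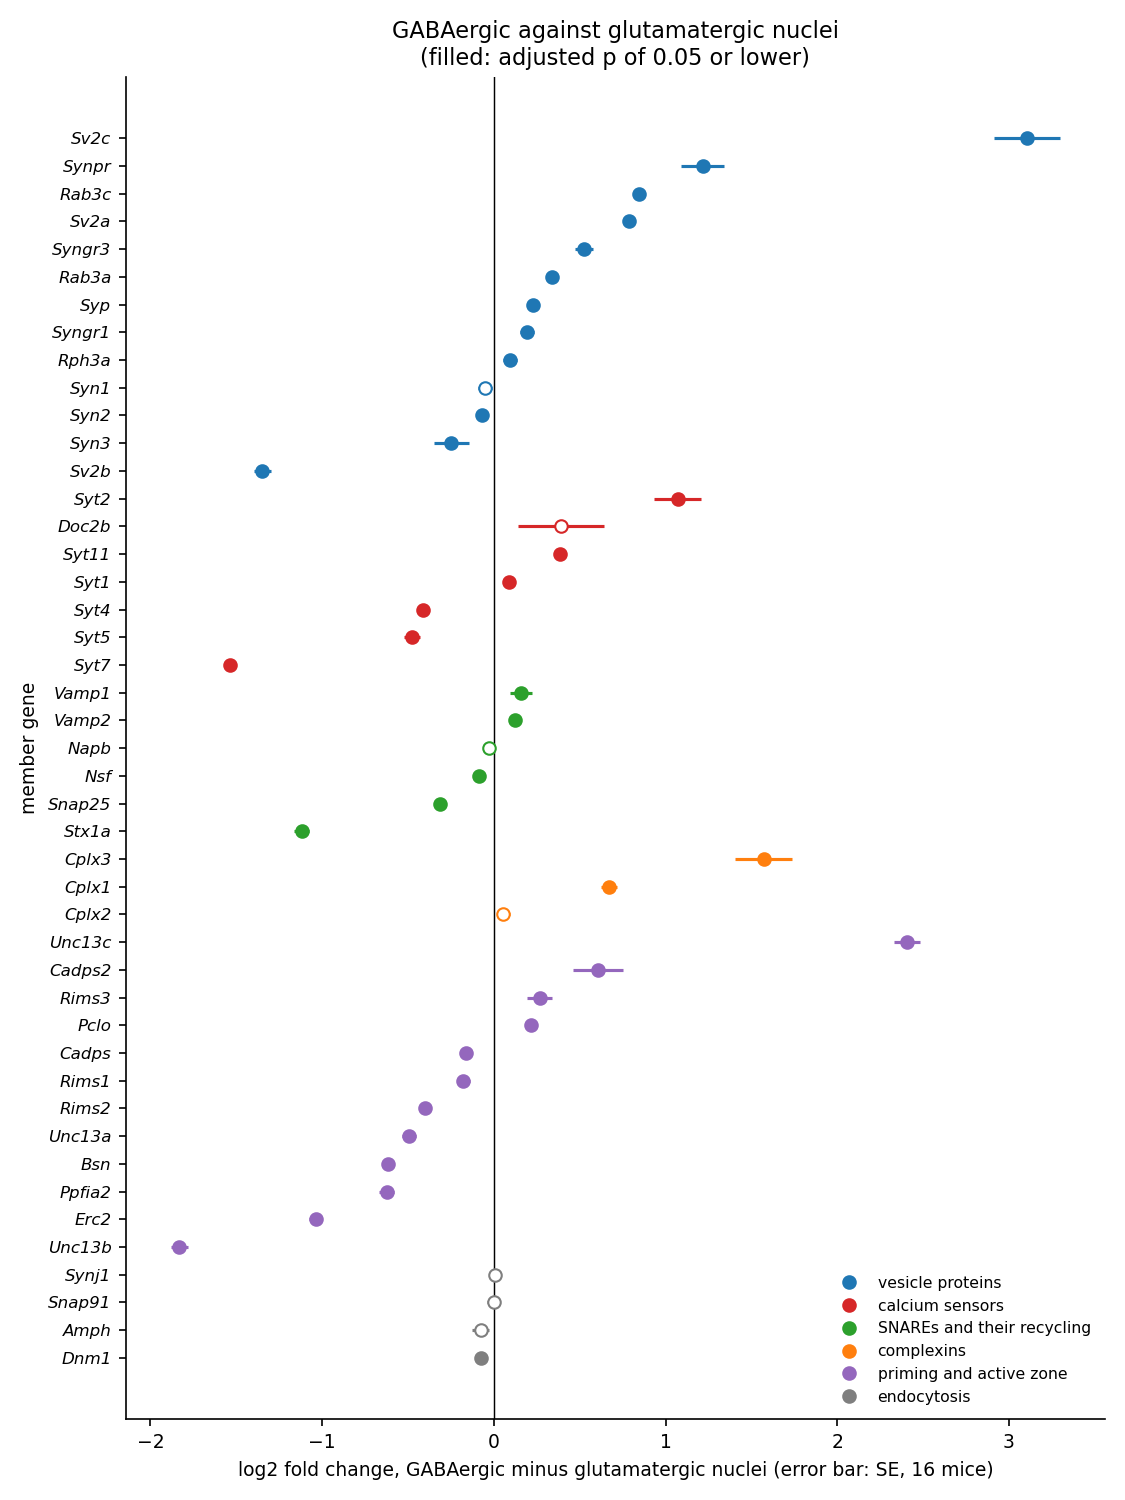
Log2 difference in level, GABAergic minus glutamatergic nuclei (horizontal axis), of the 45 members ordered within their roles, with SE bars over 16 mice; filled points passed an adjusted p of 0.05. Sv2c at 3.11 and Unc13c at 2.41 lie farthest to the right and Unc13b at -1.83 farthest to the left, and the 4 endocytosis genes at the bottom lie close to 0.

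Each of the 5 classes of GABAergic nuclei, 4 of them named interneuron classes and the fifth the Sncg-list nuclei, was next set against the mean of the other 4, within mice. With 11 to 163 nuclei per class and mouse, 37 members were among the 2725 genes tested; Syn3, Syt2, Doc2b, Vamp1, Cplx3, Unc13b, Rims3 and Amph had too few counts. Of the 37, 3 were higher and 13 lower in Pvalb-like nuclei (19.5% and 21.1% of all genes), 12 higher and 6 lower in Sst-like (15% and 11.5%), 2 higher and 6 lower in Vip-like (11% and 10.4%), 7 higher and 7 lower in Lamp5-like (15% and 13.7%), and 12 higher and 3 lower in Sncg-list nuclei (17.2% and 13.4%). These counts include the peaks of Sv2c, Unc13c and Cadps2 and their lower calls against a mean that holds the peak, both described below. With the Sncg-list nuclei left out, a comparison added after seeing the data, 35 members were tested and 15 of the 16 calls in Pvalb-like, 14 of 18 in Sst-like, 5 of 8 in Vip-like and 11 of 14 in Lamp5-like nuclei were kept in the same direction. In the Sst-like class all 5 synaptotagmins tested (Syt1, Syt4, Syt5, Syt7 and Syt11) were higher, from 1.1-fold for Syt1 to 1.89-fold for Syt5. Without the Sncg-list nuclei all but Syt7 (log2 0.14, adjusted p = 0.385) were. The vesicle proteins leaned down in the Pvalb-like class, with 6 of 12 lower and 1 higher.

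For 3 members the lowest mouse of a class was above the highest mouse of each of the other 4 classes. The share of all tested genes that do so is not given here, so the count describes these members only. Their promoters are shown because their levels stand farthest apart between classes. The sequences run from 250 bases before to 50 bases after the annotated start, 5′ to 3′ on the gene's strand, from RefSeq on GRCm38.p6: Sv2c at chr13:96132528-96132827, Unc13c at chr9:73968988-73969287 and Cadps2 at chr6:23839372-23839671, all on the minus strand. Capitals mark CACGTG, the E-box hexamer.
Sv2c: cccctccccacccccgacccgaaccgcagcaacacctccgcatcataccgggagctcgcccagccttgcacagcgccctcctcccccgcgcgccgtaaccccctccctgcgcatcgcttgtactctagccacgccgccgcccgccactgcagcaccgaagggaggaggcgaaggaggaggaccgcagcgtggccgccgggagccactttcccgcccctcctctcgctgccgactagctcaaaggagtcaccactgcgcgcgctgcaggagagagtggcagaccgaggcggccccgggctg
Unc13c: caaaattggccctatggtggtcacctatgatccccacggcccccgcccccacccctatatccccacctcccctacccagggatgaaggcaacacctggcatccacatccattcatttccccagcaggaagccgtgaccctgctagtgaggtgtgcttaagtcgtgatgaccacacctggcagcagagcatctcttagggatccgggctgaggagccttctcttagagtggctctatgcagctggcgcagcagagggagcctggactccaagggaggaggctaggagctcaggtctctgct
Cadps2: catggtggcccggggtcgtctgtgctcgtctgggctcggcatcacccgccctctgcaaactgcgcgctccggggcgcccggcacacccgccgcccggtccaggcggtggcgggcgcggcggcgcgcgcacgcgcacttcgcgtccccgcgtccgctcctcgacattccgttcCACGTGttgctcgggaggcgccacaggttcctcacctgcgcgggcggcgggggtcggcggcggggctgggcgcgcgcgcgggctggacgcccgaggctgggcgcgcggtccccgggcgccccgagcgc
The GC content of these windows was 71.7%, 59.3% and 79.7%, against a median of 52.7% over 32851 mouse promoters of the same length. CACGTG, which reads the same on both strands, was found in the Cadps2 window and in 7.15% of all promoters; among the 36 members with an entry it was also found in Cplx3, Nsf, Sv2b and Unc13b. The cyclic AMP response element TGACGTCA, also its own reverse complement, was found in Syn1 and in 1.79% of promoters. Searched on both strands, TATAAA was found in Sv2b (13.6% of promoters) and TTCAGCACC, the left part of the neuron-restrictive silencer element, in Syn1 and Unc13a (0.371%). These matches describe letters in the window only.

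Sv2c marked Lamp5-like nuclei, a class of neurogliaform interneurons. It stood at 212 to 684 CPM (median 468.0) there, while no mouse exceeded 84.9 CPM in any of the other 4 classes, and the level was 47.6-fold higher (log2 5.57 ± 0.18 SE, n = 16 mice). These 727 nuclei were a small part of the 8159 GABAergic nuclei described above. In the same class Rims1, an active zone scaffold, was 2.76-fold higher at 623 ± 189 against 224 ± 85.5 CPM, and Rab3c, a small GTPase of vesicles, 1.87-fold higher at 1078 ± 166 against 574 ± 150 CPM. Unc13c and Synpr were lower there, by -2.32 ± 0.49 and -1.25 ± 0.18 on the log2 scale, the first of which had an adjusted p of 0.0809 with nuclei assigned under stricter marker margins.

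Unc13c marked Sst-like nuclei, the somatostatin interneurons. Its 16 mice ran from 210 to 728 CPM (median 478.0) in this class and reached at most 139 CPM in the others, where the median was 0 CPM. The level was 32.5-fold higher (log2 5.02 ± 0.16). Synpr and Syt5 were 2.01-fold and 1.89-fold higher in Sst-like nuclei. Cadps2 was 4.66-fold lower, at 17.1 ± 19.1 CPM, and Sv2c lower by -1.29 ± 0.47 on the log2 scale, a call lost without mouse 17, 21 or 28. The mean Sv2c level was 8.57 CPM in Sst-like nuclei, where the 4 classes outside Lamp5-like nuclei ran from 5.94 to 10.1. The Sv2c call is thus a difference from a mean that holds the Lamp5-like peak, and no p is given for it.

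Cadps2, which primes dense-core vesicles, was highest in the Sncg-list nuclei. It ran from 352 to 792 CPM (median 469) there and from 0 to 170 CPM in the others, where Vip-like nuclei came next at a mean of 70.3. The level was 15.9-fold higher (log2 4.00 ± 0.18). The peaks of Sv2c, Unc13c and Cadps2 are given as a description, with no p: Cadps2 had enough counts for the test only through the Sncg-list nuclei, and the median mouse of the other classes was at 0 CPM for Sv2c and Unc13c. Pclo was 1.9-fold higher in Sncg-list nuclei at 1416 ± 364 against 756 ± 249 CPM, and Rph3a, the Rab3 effector rabphilin, 1.77-fold higher. Sv2c and Syt7 were lower there, by -1.77 ± 0.55 and -0.64 ± 0.13. Where a member peaks in 1 class, that class carries the mean the other classes are set against. Outside Lamp5-like nuclei the mean Sv2c level was 5.94 to 10.1 CPM in the 4 other classes, and outside Sst-like nuclei that of Unc13c was 5.82 to 29.5 CPM, so the lower calls of Sv2c in Sst-like and Sncg-list nuclei and of Unc13c in Lamp5-like and Vip-like nuclei are differences from a mean that holds the peak. The mean Cadps2 level outside Sncg-list nuclei was 17.1 to 70.3 CPM, and its lower calls in Sst-like, Pvalb-like and Lamp5-like nuclei rest on those nuclei in the same way.

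Vip-like nuclei had the highest Synpr, at 330 ± 97.6 CPM against 123 ± 97.1 in the others (3.26-fold, adjusted p = 4.85e-26), and 1.84-fold more Cplx2. Their Cadps was lower at 421 ± 141 against 593 ± 137 CPM, and Unc13c by -1.70 ± 0.57. Pvalb-like nuclei, the fast-spiking class, had the lowest Synpr, at 40.5 ± 23.5 against 195 ± 124 CPM (log2 -2.14 ± 0.21, adjusted p = 6.73e-22). They had more Cplx1 (212 ± 89.6 against 140 ± 64.2 CPM, 1.49-fold), Sv2a (1.28-fold) and Cadps (1.21-fold), and less Cadps2 (-1.50 ± 0.38). Syt2, known as a sensor of fast-spiking terminals, had too few counts for this test: a mouse gave 0 to 15 UMIs from its Pvalb-like nuclei. On the wider list 33 genes were tested, and 2 to 7 of them were higher and 2 to 5 lower in a class.

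**Figure D3:**
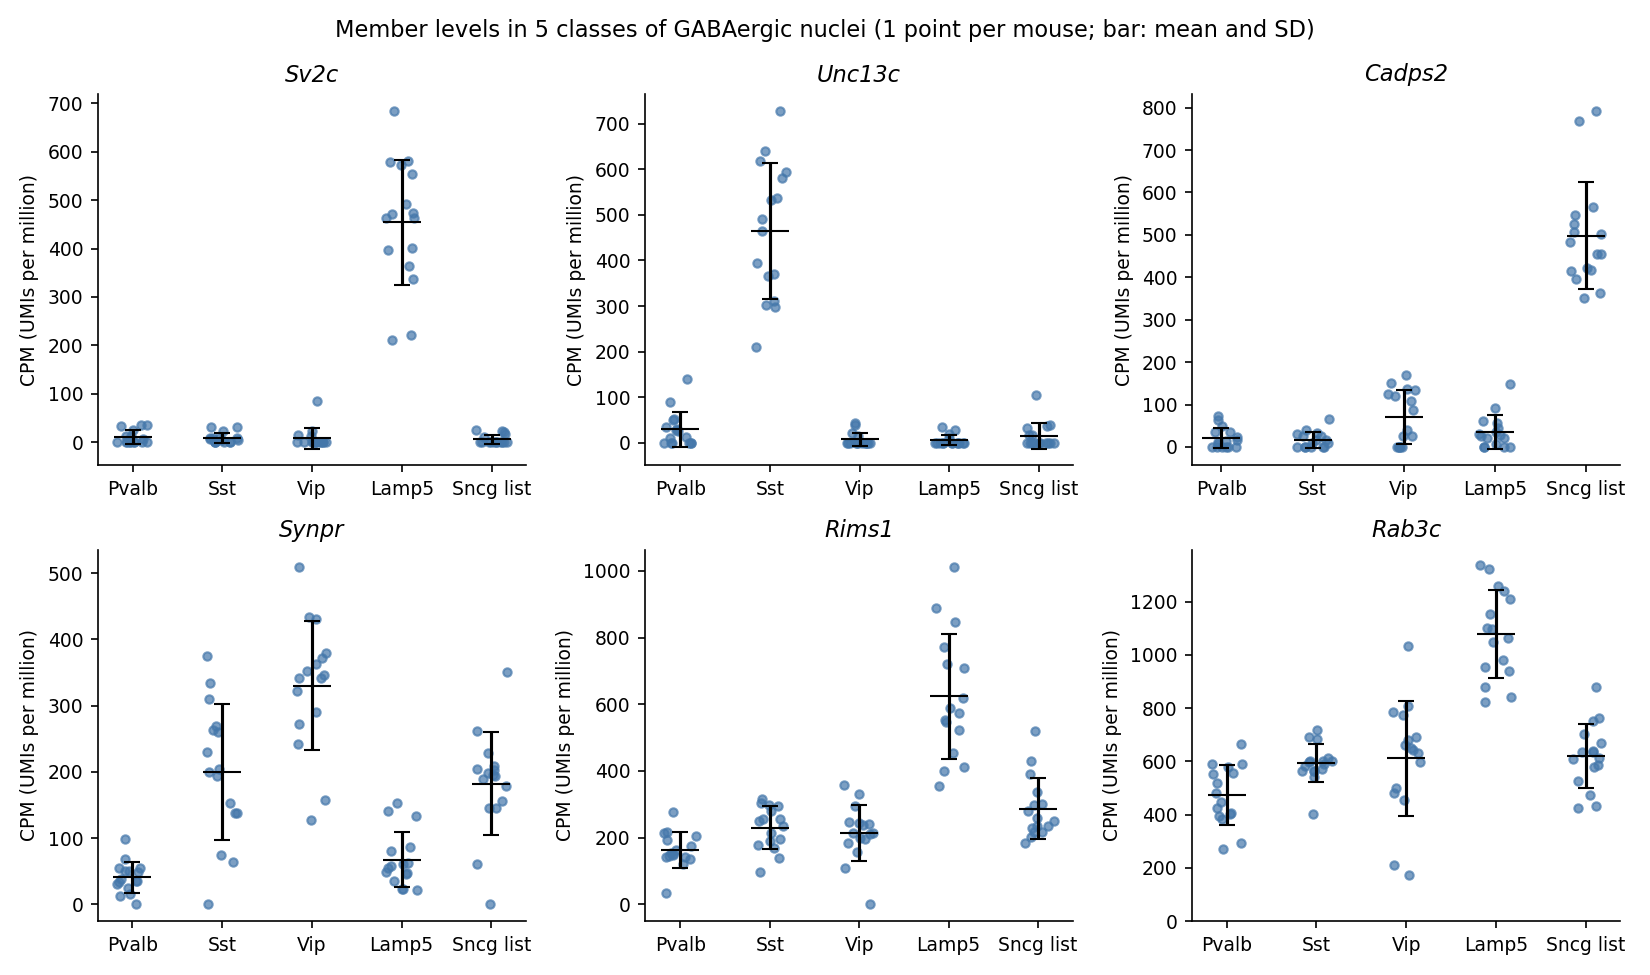
Level in CPM (vertical axis) of 6 members in the Pvalb-, Sst-, Vip-, Lamp5-like and Sncg-list nuclei, 1 point per mouse, with mean and SD bars. Sv2c in Lamp5-like, Unc13c in Sst-like and Cadps2 in Sncg-list nuclei stand clear of all other points, while Synpr, Rims1 and Rab3c overlap between classes.

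The same comparison over the 5 glutamatergic classes tested 42 members among 10418 genes; Sv2c, Doc2b and Cplx3 had too few counts. In L2/3 IT-like nuclei 16 members were higher and 13 lower (20.4% and 19.5% of all genes), in L5 IT-like 16 and 7 (14.1% and 10%), in L5 ET-like 10 and 17 (16.9% and 15.5%), in L5/6 NP-like 8 and 15 (11.7% and 14.2%), and in L6 CT-like 15 and 11 (13.8% and 12.6%). The largest fold of a class over the others was 5.46, against 47.6 among the classes of GABAergic nuclei. IT, ET, NP and CT name the targets of these neurons: intratelencephalic, extratelencephalic, near-projecting and corticothalamic. On the wider list 7 to 16 of 68 genes were higher and 8 to 16 lower in a class.

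L5 ET-like nuclei, the large deep-layer output cells, had the most Rab3c. It ran from 416 to 730 CPM (median 583) there and from 102 to 364 in the other 4 classes, so no mouse overlapped, and it was 2.84-fold higher (log2 1.504 ± 0.05, adjusted p = 1.67e-38). Cadps2 was 2.64-fold higher in the same nuclei, at 84.6 ± 25.5 against 35.9 ± 24.2 CPM with overlap, and Syt2 1.72-fold higher at 14.7 ± 8.58 against 8.51 ± 7.87 CPM. Rims3 and Unc13b were both 1.94-fold lower there.

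L5/6 NP-like nuclei had the most Unc13b, from 293 to 787 CPM (median 456) against 83.1 to 289 in the other classes, again with no overlap and a 3.15-fold difference (log2 1.66 ± 0.06, adjusted p = 4.95e-80). Unc13c was 5.46-fold higher, at 46.8 ± 39.0 CPM, yet its mice ran from 0 to 123 CPM and overlapped the others at 0 to 20.6. Sv2a was 1.52-fold higher. Cadps2 and Rims2 were lower, by -1.25 ± 0.21 and -0.79 ± 0.05 on the log2 scale.

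Erc2 was highest in L2/3 IT-like nuclei, at 275 to 514 CPM (median 345) against 82.6 to 339 elsewhere, with overlap from L5 IT-like and L5/6 NP-like values of up to 302 and 339. The difference was 2.08-fold (log2 1.05 ± 0.04, adjusted p = 5.22e-83). Rims3 and Synpr were 1.74-fold and 1.68-fold higher in L2/3 IT-like nuclei, and Cadps2 and Rab3c 2.08-fold and 1.42-fold lower. L5 IT-like nuclei shared the higher Rims3 (1.65-fold) and had more Syn2 (1.41-fold) and Stx1a (1.39-fold), with less Unc13c (-0.80 ± 0.26, adjusted p = 0.0599 under the stricter margins) and Cplx2 (-0.60 ± 0.06). L6 CT-like nuclei had the most Rims2, at 1063 ± 143 against 661 ± 181 CPM (1.65-fold, adjusted p = 7.1e-69), more Cadps2 (1.51-fold) and Rph3a (1.47-fold), and less Rab3c (-1.03 ± 0.07) and Unc13c (-0.97 ± 0.25). Outside L5/6 NP-like nuclei the mean Unc13c level was 7.06 to 10.4 CPM in the 4 other classes, so both of its lower calls are against a mean that holds the L5/6 NP-like peak.

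**Figure D4:**
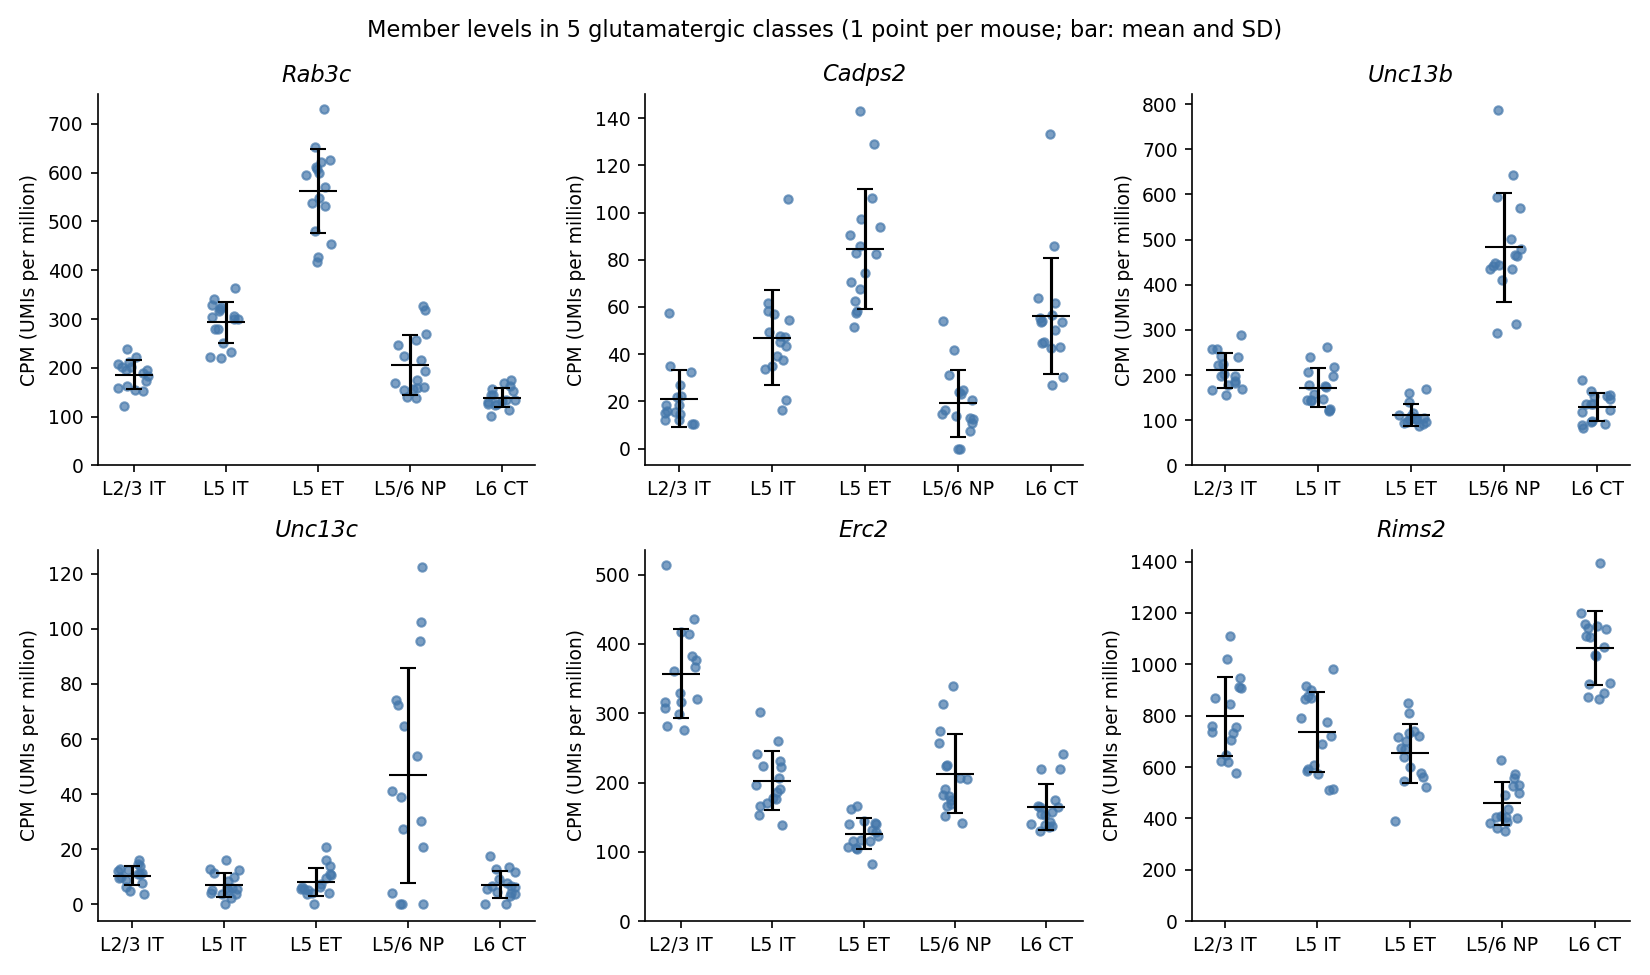
Level in CPM (vertical axis) of 6 members in 5 glutamatergic classes, 1 point per mouse, with mean and SD bars. Rab3c in L5 ET-like and Unc13b in L5/6 NP-like nuclei stand clear of all other points, Unc13c in L5/6 NP-like nuclei runs from 0 to 123, and Rims2 is highest in L6 CT-like nuclei.

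The groups of mice were compared last, to ask whether the genotype, the alcohol or both together moved the release machinery. Counts were summed per mouse and class and tested in 17 classes and 6 contrasts: each genotype against the other within a treatment, each treatment against the other within a genotype, alcohol-exposed 3xTg-AD against WT control mice, and the interaction of genotype and alcohol. These contrasts share groups, so they are not independent. Of 3594 tests of members, 0 were called up and 5 down, and 342 had an unadjusted p under 0.05 (9.52%, against 8.12% of all genes' tests); of all 594462 tests 0.284% were called. By contrast, 3 of 599 member tests were called between alcohol-exposed 3xTg-AD and WT control mice (1.02% of all tests), 1 between 3xTg-AD and WT controls (0.183%) and 1 between the alcohol-exposed genotypes (0.362%). For alcohol within WT mice, alcohol within 3xTg-AD mice and the interaction, 0 were called (0.0273%, 0.117% and 0% of all tests), with 77, 35 and 27 at an unadjusted p under 0.05 (12.9%, 5.84% and 4.51%, against 9.54%, 7.69% and 4.06% of all tests); DESeq2 called 2, 1 and 0 there. The 2 were Syp, or synaptophysin, higher with alcohol within WT mice in glutamatergic (log2 0.40, adjusted p = 0.00893) and GABAergic nuclei (0.55, 0.0136), as in all nuclei (0.37, 0.00158). The 1 was Syt2, lower with alcohol within 3xTg-AD mice in glutamatergic nuclei (-1.11, 0.0133), as in all nuclei (-0.88, 0.0181). Between the alcohol-exposed genotypes DESeq2 called Sv2a lower in GABAergic (-0.40, 0.0205) and Nsf lower in glutamatergic nuclei of 3xTg-AD mice (-0.27, 0.0249). In all nuclei it called Sv2a (-0.26, 0.00445), Nsf (-0.29, 0.0461) and Syp (-0.26, 0.0257) lower in that contrast. With no filter on low counts edgeR called 4 members up: Synpr and Syp with alcohol within WT and Sv2c with alcohol within 3xTg-AD mice, each in GABAergic nuclei (log2 0.61, 0.58 and 0.86), and Unc13c in L5/6 NP-like nuclei of alcohol-exposed 3xTg-AD against WT mice (2.82). With 1 mouse left out in turn, the 5 calls became 1 without mouse 4, 26, 31 or 33, 2 without mouse 14, 18 or 21, 3 without mouse 34, and 8, 10 and 14 without mice 12, 27 and 36. The 3 calls between alcohol-exposed 3xTg-AD and WT control mice became 0 without mouse 4, 26, 31 or 33, 1 without mouse 14, 18 or 21, and 6, 7 and 8 without mice 12, 27 and 36. The shares of all tests above are for edgeR on all mice with the filter. Those under DESeq2, with no filter or with a mouse left out are not given here.

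In sums over all nuclei, where fewer cells of a type and less RNA per cell cannot be told apart, Syt2 was the 1 member called in 6 contrasts (0.99% of all tests), between alcohol-exposed 3xTg-AD and WT control mice (4.06% of all 16767 genes). The median log2 difference of the 45 members was -0.07 in that contrast and -0.15 between the alcohol-exposed genotypes, where all genes had medians of 0.00 and -0.01; 30 and 37 of the 45 had a value below 0 (66.7% and 82.2%, against 49.4% and 51.4% of all genes). Between the alcohol-exposed genotypes the share of members below 0 ran from 52.8% in L5/6 NP-like nuclei (19 of 36, median -0.02) to 92.7% in astrocyte-like nuclei (38 of 41, median -0.22), with 88.6% in microglia-like (31 of 35, median -0.31), 71.1% in glutamatergic (32 of 45, median -0.11), 64.9% in oligodendrocyte-like (24 of 37, median -0.03) and 59.3% in Pvalb-like nuclei (16 of 27, median -0.03). The share was 81.6% in L5 ET-like, 80.5% in L2/3 IT-like, 77.3% in GABAergic and 76.3% in L6 CT-like nuclei (medians -0.16, -0.11, -0.11 and -0.15). The wider presynaptic list had a median of -0.11 in all nuclei and -0.19 in microglia-like nuclei. Of all genes, 48.3 to 51.5% were below 0 in a class. The medians were -0.03 for 3xTg-AD against WT controls, 0.07 for alcohol within WT, -0.07 for alcohol within 3xTg-AD and -0.14 for the interaction. The summed share of the members in a mouse was 1.13 to 1.23% in alcohol-exposed WT mice and 1.04 to 1.05% in alcohol-exposed 3xTg-AD mice, which do not overlap, and 0.956 to 1.17% and 0.999 to 1.15% in the WT and 3xTg-AD controls, which do. Within classes, the summed level of the members between the alcohol-exposed genotypes was 13780 to 15400 CPM in WT and 10820 to 12810 in 3xTg-AD mice in microglia-like nuclei, 8633 to 9414 and 7430 to 8084 in astrocyte-like nuclei and 12700 to 13160 and 11200 to 12290 in oligodendrocyte-like nuclei, without overlap, and 10600 to 11380 and 10110 to 10830 in glutamatergic nuclei, with overlap. Nuclei with under 5% Malat1, of any class or none, made up 26.5 to 39.2% of the nuclei of alcohol-exposed WT and 17.7 to 41.7% of those of alcohol-exposed 3xTg-AD mice. In sums over the nuclei with at least 5% Malat1 the median log2 difference of the members between these groups was -0.13, with 36 of 45 below 0.

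Syt2 in all nuclei was at 20.4, 9.74, 12.6 and 10.6 CPM in WT control mice 26, 27, 28 and 36 and at 6.29, 5.47, 4.25 and 7.67 CPM in alcohol-exposed 3xTg-AD mice 4, 31, 33 and 34. The groups did not overlap, and Syt2 fell 2.27-fold (log2 -1.18 ± 0.22 SE, edgeR adjusted p = 0.00712). The 3xTg-AD controls ran from 8.73 to 13.5 CPM, overlapping the WT controls, and the alcohol-exposed WT mice from 7.29 to 9.46 CPM, overlapping the alcohol-exposed 3xTg-AD mice at the low end. A mouse gave 70 to 251 Syt2 UMIs. In glutamatergic nuclei Syt2 was at 16.2, 7.62, 12.4 and 9.09 CPM in the WT controls and at 4.48, 4.65, 4.03 and 6.62 in the alcohol-exposed 3xTg-AD mice, also without overlap (log2 -1.21 ± 0.28, adjusted p = 0.0238, 3.11% of all genes). Mouse 26 was the highest in both. Without it the call in all nuclei stayed, with log2 values of -1.32 to -0.90 over the 16 mice left out in turn, while the adjusted p in glutamatergic nuclei was 0.0868; it was 0.0515 to 0.0781 without mouse 4, 28, 31 or 33. With Gm42418 as a covariate neither Syt2 call passed, at an adjusted p of 0.0521 in all nuclei (log2 -0.98) and 0.0706 in glutamatergic nuclei (-1.14). Without the 3 mice highest in Gm42418 the call in all nuclei stayed and that in glutamatergic nuclei had an adjusted p of 0.0617 (-1.11). Against 3xTg-AD controls, edgeR with the covariate called Syt2 lower in glutamatergic nuclei of alcohol-exposed 3xTg-AD mice (log2 -1.075, adjusted p = 0.0438). Without those 3 mice it was called lower there in all (-0.92, 0.0218) and glutamatergic nuclei (-1.14, 0.0334), and without mouse 26 in all nuclei (-0.89, 0.0391).

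Complexins made up the rest. In astrocyte-like nuclei Cplx1 was at 193, 129, 169 and 151 CPM in WT control mice 26, 27, 28 and 36 and at 89.0, 101, 95.5 and 64.0 in 3xTg-AD control mice 12, 13, 14 and 21. The groups did not overlap (log2 -0.88 ± 0.19, adjusted p = 0.0179; 0.118% of all genes). Alcohol-exposed 3xTg-AD mice ran from 80.3 to 127 CPM, just below the lowest WT control (log2 -0.68 ± 0.18, adjusted p = 0.0487; 0.62% of all genes), and alcohol-exposed WT mice from 95.4 to 168. Cplx2 in the same nuclei was at 542, 257, 325 and 391 CPM in the WT controls and 239, 231, 272 and 238 in the alcohol-exposed 3xTg-AD mice, with overlap (log2 -0.64 ± 0.16, adjusted p = 0.0469). These astrocyte-like values rest on 31 to 115 Cplx1 UMIs a mouse. Complexins are neuronal proteins, and Cplx1 stood at 130 ± 39.9 CPM in astrocyte-like, 134 ± 48.6 in microglia-like and 76.7 ± 19.7 in glutamatergic nuclei when classes were compared; the part of neuronal RNA in the astrocyte-like values was not tested. All 3 calls were lost without mouse 26, at adjusted p of 0.207, 0.264 and 0.413 and log2 values of -0.78, -0.57 and -0.41. They were also lost with Gm42418 as a covariate (0.0623, 0.339 and 0.431, at log2 -0.83, -0.55 and -0.44), without mice 26, 27 and 12, which stood apart in it (0.126, 0.154 and 0.159, at log2 -0.87, -0.66 and -0.55), and in nuclei with at least 5% Malat1 (0.132, 0.0538 and 0.2, at log2 -0.78, -0.73 and -0.53). In this Malat1 setting edgeR called Cplx1 lower in alcohol-exposed 3xTg-AD than in WT control mice in all nuclei (log2 -0.59, adjusted p = 0.02). It did so in glutamatergic nuclei too (-0.57, 0.037). DESeq2, without the Malat1 limit, also called Cplx1 lower in all (-0.56, 0.0361) and glutamatergic nuclei (-0.58, 0.0363). The Cplx1 call between controls was also lost without mouse 14 or 21 (0.0534 and 0.248, at log2 -0.94 and -0.76), and each of the other 2 calls without 10 further mice.

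In L6 CT-like nuclei Cplx1 was lower in alcohol-exposed 3xTg-AD than in alcohol-exposed WT mice. It was at 122, 35.6, 82.1 and 107 CPM in WT mice 6, 7, 17 and 18 and at 42.9, 51.3, 54.1 and 50.2 in 3xTg-AD mice 4, 31, 33 and 34 (log2 -0.90 ± 0.21, adjusted p = 0.0346; 0.32% of all genes). Mouse 7, with 5 UMIs, lay below every 3xTg-AD mouse, so the groups overlapped. The adjusted p was 0.0518 to 0.234 without mouse 4, 6, 17, 18, 31, 33 or 34, with log2 values of -0.996 to -0.76. It was 0.1 by DESeq2 (log2 -0.90) and 0.0775 in nuclei with at least 5% Malat1 (-0.81). In all nuclei Cplx1 was at 81.3 to 131 CPM in alcohol-exposed WT and 61.6 to 89.1 CPM in alcohol-exposed 3xTg-AD mice, and in microglia-like nuclei at 172 to 295 and 86.5 to 191 CPM, with overlap in both. Under the stricter marker margins all 4 complexin calls were lost, at adjusted p of 0.0843 to 0.29.

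**Figure D5:**
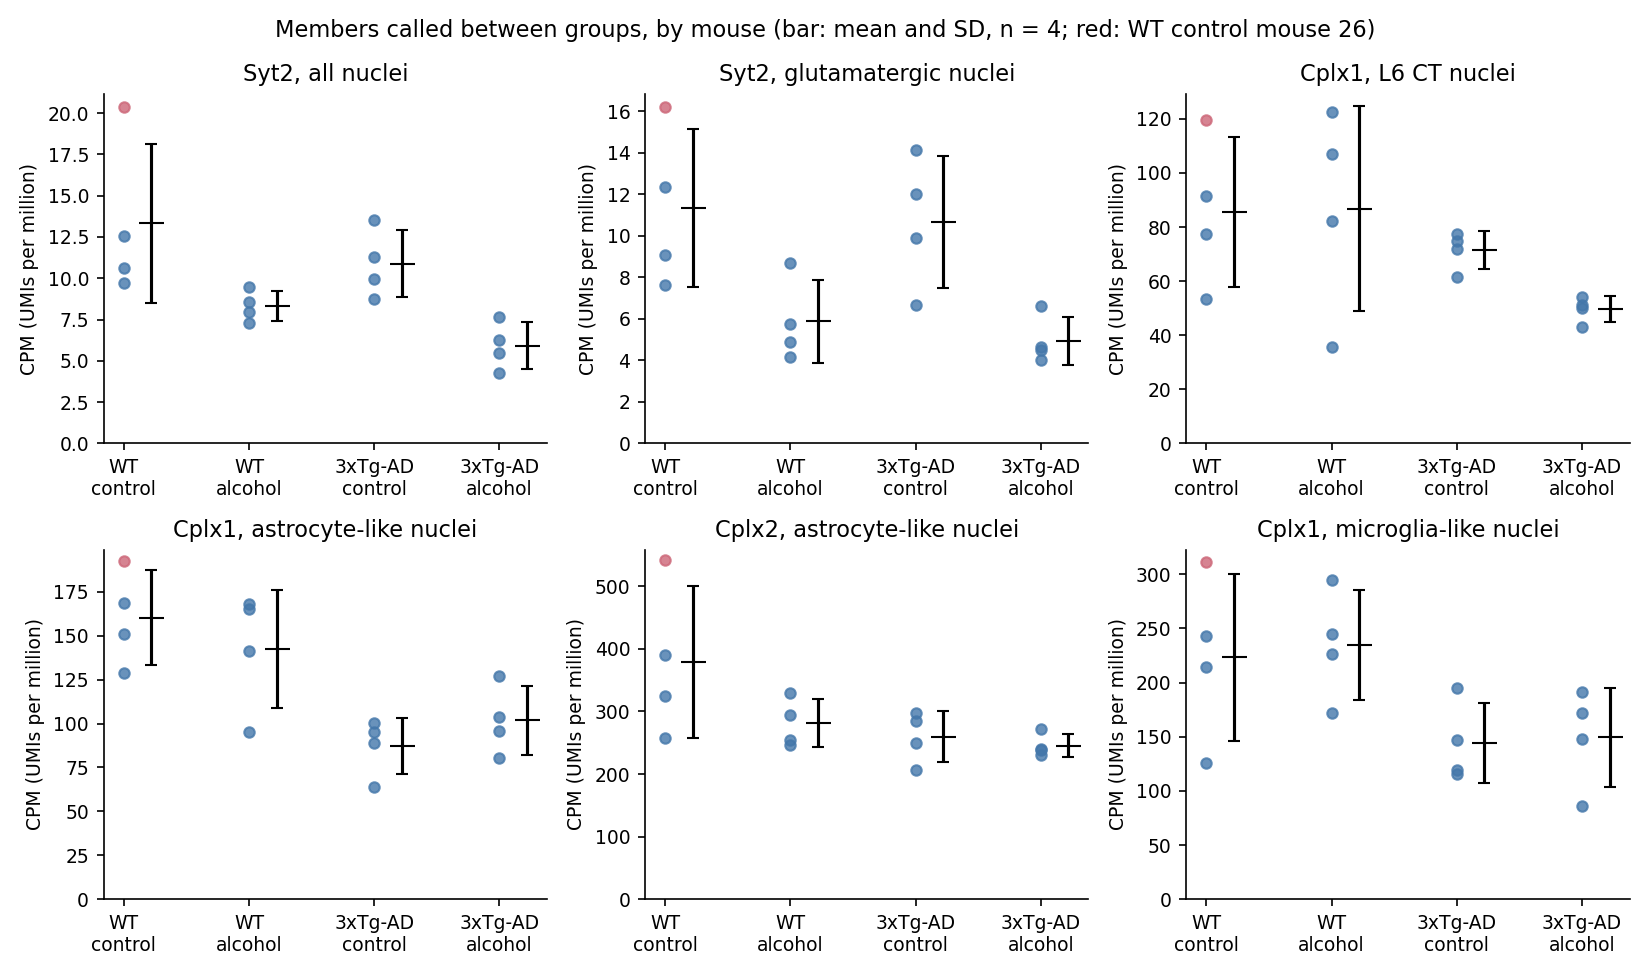
Level in CPM (vertical axis) of Syt2, Cplx1 and Cplx2 by mouse in the 4 groups, for the 6 nuclei sets named above the panels, with mean and SD bars (n = 4) and WT control mouse 26 in red. Mouse 26 is the highest WT control in every panel, at 20.4 for Syt2 in all nuclei and 542 for Cplx2 in astrocyte-like nuclei, and in microglia-like nuclei Cplx1 runs from 125 to 311 in WT controls and from 115 to 195 in 3xTg-AD controls.

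Members with the next lowest p did not pass by edgeR on all mice. Between alcohol-exposed 3xTg-AD and WT control mice these were Pclo in vascular-like nuclei (247 ± 28.7 against 476 ± 58.8 CPM, adjusted p = 0.0565), Unc13c in astrocyte-like nuclei (148 ± 31.4 against 229 ± 60.5, adjusted p = 0.0844), Cplx2 in L5 ET-like nuclei (94.0 ± 12.6 against 161 ± 52.9, adjusted p = 0.0905), Cplx1 in L6 CT-like nuclei (49.6 ± 4.78 against 85.4 ± 27.7, adjusted p = 0.103) and Syt7 in L2/3 IT-like nuclei (421 ± 55.3 against 577 ± 41.5, adjusted p = 0.109). Of these, the Pclo, Cplx2 and Syt7 values did not overlap between the groups, and all 5 were lower in the alcohol-exposed 3xTg-AD mice. Syt7 in L2/3 IT-like nuclei passed by DESeq2 (adjusted p = 0.0291). In all nuclei Syt7 was called lower in the same contrast by DESeq2 (log2 -0.375, adjusted p = 0.00854). There edgeR also called it with Gm42418 as a covariate (-0.489, 0.0396) and without the 3 mice highest in it (-0.484, 0.0435). In glutamatergic nuclei Syt7 was called lower by DESeq2 (-0.371, 0.00839) and by edgeR in nuclei with at least 5% Malat1 (-0.385, 0.0443). Pclo in vascular-like nuclei passed in nuclei with at least 500 genes and at most 5% mitochondrial UMIs (0.0423) and without mouse 7, 12, 13, 17 or 36 (0.0334 to 0.0449). Unc13c passed without mouse 12 or 36 (0.0496 and 0.0202), Cplx2 without mouse 12 or 27 (0.0439 and 0.0222) and Cplx1 without mouse 27 (0.0435). Between the controls the 5 were Synpr in L2/3 IT-like nuclei, which was higher in 3xTg-AD at 57.1 ± 5.85 against 32.5 ± 8.54 CPM (adjusted p = 0.101), and Rims1 in astrocyte-like (adjusted p = 0.119), Cplx2 in L2/3 IT-like (0.166), Cadps2 in L6 CT-like (0.22) and Cplx1 in L5 IT-like nuclei (0.458), with log2 differences of -0.83, -0.69, -0.94 and -0.76. Synpr passed without mouse 28 (0.0307), Cadps2 without mouse 36 (0.0385), and Cplx2 without mouse 27 (0.0458) or with no filter on low counts (0.00606). By edgeR's quasi-likelihood test with 4 mice a group, simulated 2-fold changes were recovered in 69.5% of genes in all nuclei, 37.3% in astrocyte-like and 30% in L6 CT-like nuclei. Simulated 1.5-fold changes were recovered in 10.9%, 1.89% and 2.33%. Changes of these sizes could therefore be missed within classes. The simulation gave every gene the same spread between mice, so recovery for members that spread more was not tested.

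On the wider list of 77 presynaptic genes, 1 was called up and 2 down in 4896 tests within classes, all between alcohol-exposed 3xTg-AD and WT control mice. In all nuclei Rab3gap2, which regulates the Rab3 GTPase cycle, was at 88.1 ± 3.98 CPM in WT controls and 58.9 ± 4.62 in alcohol-exposed 3xTg-AD mice, without overlap (log2 -0.58 ± 0.11, adjusted p = 0.00607). It was also the gene called down within classes, in glutamatergic (log2 -0.58, adjusted p = 0.00773) and astrocyte-like nuclei (-0.88, 0.0179), and Sgip1, an endocytic adaptor, the one called up, in glutamatergic nuclei (0.37, 0.0488). Both Rab3gap2 calls in all and in glutamatergic nuclei stayed under every alternative, the one in astrocyte-like nuclei was lost under 5 of 25 (adjusted p of 0.0572 to 0.128), mouse 4 or 26 left out and Gm42418 as a covariate among them, and the Sgip1 call under 18 of 25 (0.0505 to 0.116). The other genes with the lowest p did not pass by edgeR on all mice with the settings used above. Bin1 in L5 ET-like and Stxbp5l in OPC-like nuclei had adjusted p of 0.0907 and 0.087 in that contrast. Between the controls these were Rab3gap2 in astrocyte-like (0.238), Vamp3 in glutamatergic (0.122) and Rab3b in Sst-like nuclei (0.496), and between the alcohol-exposed genotypes Syt17 in L2/3 IT-like (0.106), Atp6v1b2 in L5/6 NP-like (0.146) and Rab3gap2 in all nuclei (0.0713). For alcohol within WT they were Atp6v1a in Sncg-list (0.275), Erc1 in L2/3 IT-like (0.226) and Ppfia1 in glutamatergic nuclei (0.242), and within 3xTg-AD Sgip1 in GABAergic (0.127), Rab3b in Sst-like (0.53) and Sh3gl3 in L6 CT-like nuclei (0.291). For the interaction they were Rab3b and Napa in Sst-like (0.995 for both) and Atp6v1a in Vip-like nuclei (0.551). Of these genes, Sgip1 in GABAergic nuclei passed under 4 of 25 alternatives (adjusted p of 0.0106 to 0.0455), Gm42418 as a covariate and DESeq2 among them. Syt17 passed under 2 of 25 (0.0207 to 0.0396) and Rab3gap2 between the alcohol-exposed genotypes under 2 of 23 (0.0197 to 0.0377). Bin1 passed without mouse 12 (0.0392), Stxbp5l without mouse 28 (0.0308) and Vamp3 by DESeq2 (0.05).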

How the data were processed

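Nuclei of 16 mice were sequenced with the 10x 3′ v3.1 chemistry. The deposited table holds raw UMI counts per gene and nucleus, which the authors made with Cell Ranger 6.1.1, STAR and mm10 before deposit. Nucleus filters and intron counting are not given in the sources used here. No further nucleus was filtered and no doublets were called; nuclei with markers of several classes (7197) and 903 striatal or Meis2-like nuclei, 387 of them from mouse 27, were left out of classes. A class needed 3 marker UMIs from 2 genes. Counts were summed per mouse and class (at least 10 nuclei, 3 mice a group) and tested with edgeR 4.0.16 quasi-likelihood fits (TMM, filterByExpr) in R 4.3.3, Benjamini-Hochberg adjusted over all genes per class and contrast, with a limit of 0.05; all groups shared 1 fit. Class comparisons had mouse as a block. The rule for names took the 3 members per role with the largest called difference, 3 up and 2 down per class, every mouse's level for members called between groups, the 5 members with the lowest p not called in 2 contrasts, and the 3 lowest p of the wider list per contrast. Alternatives were DESeq2 1.42.0, its size factors, no filter, Gm42418 as a covariate or without the 3 mice highest in it, stricter margins, nucleus filters and each mouse left out. The members, lists and markers were chosen with earlier results of these data known. Positions and lengths came from GENCODE vM21 (GRCm38), promoters from RefSeq, with an entry for 36 of the 45 members. A further allele of the 3xTg-AD strain is not reported here.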

Additional observations from a re-analysis of the deposited data

Results flagged for a closer look

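In 5 of 56 groups of 4 mice examined, 1 mouse lay far from the other 3 (Dixon's test; chance flags about 5% of groups). Cadps2 in L6 CT-like nuclei was at 66.22 CPM in alcohol-exposed 3xTg-AD mouse 34, with the others of its group at 44.5 to 46.2. In the same nuclei Cadps2 was at 52.43 CPM in alcohol-exposed WT mouse 18, where the others lay close together at 56.9 to 57.7. Cplx1 in L5 IT-like nuclei was at 23.56 CPM, from 9 UMIs, in 3xTg-AD control mouse 12 and at 61.0 to 64.0 in the others. Cplx2 in L2/3 IT-like nuclei was at 192.4 CPM in 3xTg-AD control mouse 14 and at 137 to 141 in the others. Pclo in vascular-like nuclei was at 388.7 CPM in WT control mouse 36 and at 496 to 511 in the others. None of these 5 belongs to a group difference that passed by edgeR on all mice. Without mouse 36, Pclo in vascular-like nuclei passed between alcohol-exposed 3xTg-AD and WT control mice (adjusted p = 0.0334). Cplx2 in L2/3 IT-like nuclei passed between the controls with no filter on low counts (0.00606), and Cadps2 in L6 CT-like nuclei without mouse 36 (0.0385).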

How the results depend on the processing

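The 3 member calls within classes between alcohol-exposed 3xTg-AD and WT control mice became 5 with no filter on low counts, 6 with Gm42418 as a covariate, 5 with DESeq2 and 1 with stricter class margins, and 0 to 8 with 1 mouse left out. Of the 3, the settings named kept 3, 0, 2 and 1, and 0 were kept without the 3 mice highest in Gm42418, where 2 others were called. The 5 calls over 6 contrasts became 12, 11, 11 and 2 under the same settings, 3 in nuclei with at least 5% Malat1, and 1 to 14 with 1 mouse left out. The 1 call in all nuclei became 3 with Gm42418 as a covariate, 3 without the 3 mice highest in it, 8 with DESeq2, 2 in nuclei with at least 5% Malat1, and 1 to 2 with 1 mouse left out (2 without mouse 26 or 36). With the covariate, Bsn was called lower in alcohol-exposed 3xTg-AD than in WT control mice in all nuclei (log2 -0.67, adjusted p = 0.0299) and in GABAergic, glutamatergic, L2/3 IT-like, L5 ET-like, L6 CT-like and astrocyte-like nuclei, which are all 6 calls of that setting. The cause of these changes was not tested. The share of all genes called under each of these settings is not given here. Calls between classes stayed within 1.5 times: 33 to 38 members for GABAergic against glutamatergic, 54 (without the Sncg-list nuclei) to 72 for GABAergic and 113 to 131 for glutamatergic classes, over every setting run. No member named between groups or between neuronal classes changed sign, nor did a named gene of the wider list. Of the other members called between neuronal classes, Rab3a in Sncg-list nuclei went from 0.31 to -0.07 (log2) in nuclei with at least 5% Malat1. Against microglia-like nuclei none of the 44 members changed sign with DESeq2 size factors. In nuclei with at least 5% Malat1, Syn2 did in glutamatergic (log2 from -0.02 to 0.28) and GABAergic nuclei (-0.07 to 0.24). So did Rph3a in glutamatergic nuclei (-0.03 to 0.42), each then called higher. Sign changes without a call were those of Snap91, Amph and Synj1 in both, Syt11, Vamp1 and Unc13c in glutamatergic and Syt7 in GABAergic nuclei. Added after seeing the data were the Malat1 setting, the fit without Sncg-list nuclei, for the GABAergic and glutamatergic classes also DESeq2 size factors and each mouse left out (and, for the former, striatal or Meis2-like nuclei kept in), and the neuron against microglia-like comparisons, where the 27 and 35 calls became 27 and 35 with DESeq2 size factors and 30 and 33 in nuclei with at least 5% Malat1. No paired analysis was possible because every mouse carries a number of its own and no group shares one with another. Depth limits the classes: Syt2 rested on 0 to 7 UMIs a mouse in microglia-like or oligodendrocyte-like nuclei.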

Other observations

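Several members had mean levels in astrocyte-like or OPC-like nuclei that exceeded those in microglia-like nuclei; these differences were not tested. Syn3, a synapsin, was at 42.5 ± 10.4 CPM (SD, 16 mice) in astrocyte-like and 31.2 ± 17.4 in OPC-like nuclei, beside 23.4 ± 4.00 in glutamatergic, 19.4 ± 6.30 in GABAergic and 3.46 ± 5.45 in microglia-like nuclei. In OPC-like nuclei, which receive synapses from neurons, Rims2 was at 393 ± 82.7 CPM and Cadps at 226 ± 58.3, beside 159 ± 40.6 and 134 ± 55.9 in microglia-like nuclei, while Snap25 was at 950 ± 130 beside 1134 ± 205. Unc13b was at 74.3 ± 32.0 CPM in OPC-like nuclei and between 30.5 and 35.2 in the other glial classes. Syt11, which is known to act in vesicle and membrane traffic outside synapses too, was at 865 ± 152 CPM in oligodendrocyte-like nuclei beside 513 ± 80.8 in glutamatergic nuclei and 886 ± 52.9 in the unassigned nuclei with little Malat1; 23 of the 44 members had a higher mean in oligodendrocyte-like than in glutamatergic nuclei.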
